A study of Mus musculus with 8 samples.

Results

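Gene expression was compared between CD8α- dendritic cells from the spleens of RAG2-deficient mice and the same sorted cells from wild type mice. The comparison uses 4 of the 8 arrays of the study, 2 for each genotype, and the other 4 arrays hold CD8α+ dendritic cells, again 2 for each genotype. The labels describe all animals as untreated female C57BL/6 mice, 10 weeks old, and give the knockout genotype as RAG2-/-. The knockout is carried by every cell of the animal, so the dendritic cells and the tissue around them have it alike. The labels number the replicates and do not tell whether each was a mouse of its own or a pool, and the spread behind the p-values may thus be technical. Total RNA was labelled with biotin and hybridised to Affymetrix mouse expression arrays, which read each transcript with one or more sets of short probes. Of 45101 probe sets, 14036 named 1 gene and reached a log2 value of 5 on at least 2 of the 4 CD8α- arrays, and these stood for 8509 genes. Each gene was represented by its brightest probe set, and values under 5 were set to 5 before changes were computed.

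Conventional dendritic cells take up antigen and present it to T cells. In the mouse spleen the CD8α- subset lies mainly at the border of red and white pulp, presents peptides on MHC class II to CD4 T cells, and is known to need signals through Notch2 and the lymphotoxin β receptor. RAG2 is one of the recombinase proteins that assemble antigen receptor genes, and without it no mature T or B cells form, which removes both the T cells that dendritic cells instruct and the B cells that are a major source of lymphotoxin in the spleen. The study set the genotypes side by side to ask how lymphocytes bear on antigen presentation by these cells.

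The sort could be seen on the CD8α- arrays. Cd8a, the α chain of CD8, read 5.80 and 6.10 on the wild type arrays and 6.90 and 7.70 on the knockout arrays, against 11.73 and 11.94 on the wild type CD8α+ arrays. Cd4, which most cells of this subset carry, read 8.08 and 7.83 on the wild type arrays and 10.00 and 11.23 on the knockout arrays. Rag1 and Rag2 were below 5 on all 4 arrays, so the targeted gene gave no check of the genotype. Markers of other cells were not at the same level on the 4 arrays, as the plot of marker lists shows. None of 15 neutrophil markers reached 5 on either wild type array, 2 did on knockout array 1 and 9 on knockout array 2. Their summed linear values were 143 and 110 for wild type against 244 and 10084 for the knockout, and the granule genes Ngp and Camp read 11.65 and 9.40 on knockout array 2 and below 5 on the other 3 arrays. NK cell markers at 5 or more numbered 2 and 4 of 12 for wild type against 4 and 9 for the knockout, again with the most on knockout array 2. All 10 markers of stromal and endothelial cells were below 5 on the 4 arrays. Of 12 T cell markers, 3 and 3 reached 5 for wild type against 2 and 2 for the knockout. Cd3d, Cd3e and Cd3g were below 5 on all 4 arrays, and Cd5 and Il7r were above it on all 4. Bcl11b read 5.80 and 6.97 on the wild type arrays and 4.15 and 4.63 on the knockout arrays. Of 3 T cell markers tested, 1 was called lower and none higher, beside 16.8% of all genes called lower. Because knockout array 2 stands apart in its neutrophil and NK cell markers, counts are also given without it.

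**Figure D1:**
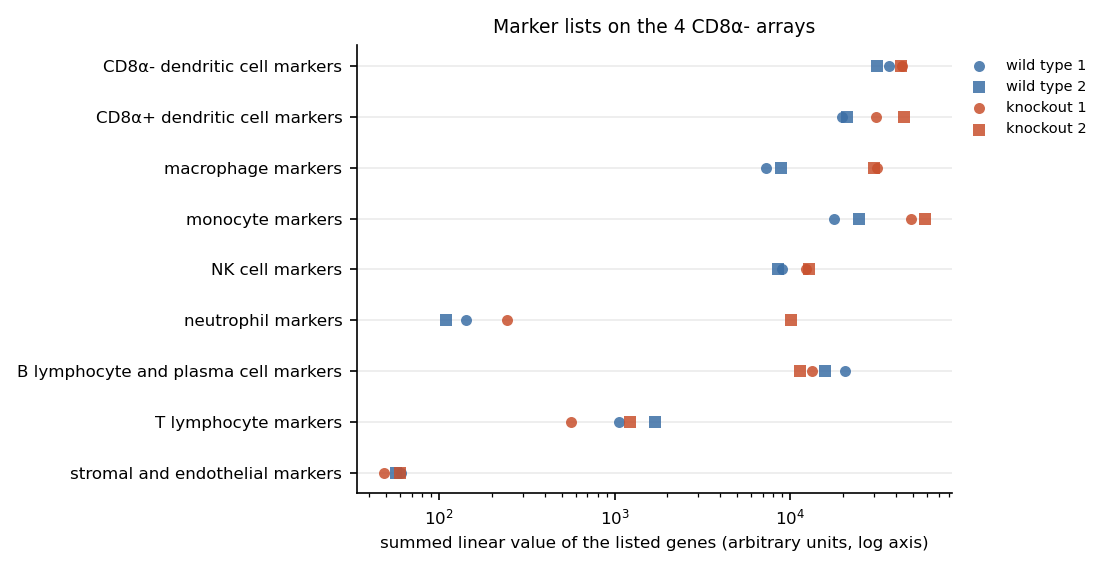
Each point is the summed linear value of the genes of one marker list on one CD8α- array, on a log axis, for 2 wild type (blue) and 2 knockout (red) arrays. The neutrophil list stands at 10084 on knockout array 2 and at 110 to 244 on the other 3, while the macrophage and monocyte lists are higher on both knockout arrays than on both wild type arrays.

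Of the 8509 genes, 3457 were called different between the genotypes (40.6%; limma, Benjamini-Hochberg adjusted p under 0.05), 2027 of them higher in the knockout (23.8%) and 1430 lower (16.8%). The share of calls that were higher was 58.6%, and it was 49.3% after centring each array on its median and 49.9% after quantile normalization. The median change over all genes was 0.14, and 0.01 and 0.02 under those scalings. A log2 change of at least 1 was reached by 1960 called genes (23%). The arrays of the groups did not overlap for 6349 genes (74.6%), so a gene whose arrays do not overlap is the common case here. The lowest value is identical on the knockout arrays and differs from those of wild type, as it does when sets of arrays are normalized apart. Genotype and normalization therefore cannot be told apart. The RNA quality controls also moved with the genotype. The difference between the 3′ and 5′ probe sets of Gapdh was 3.67 and 4.67 for wild type against 2.87 and 2.38 for the knockout, and that of Actb was 2.08 and 2.14 against 1.49 and 0.90. The part of both in the changes below was not tested, and the RNA itself came from sorted cells in bulk, so fewer cells of a type and less RNA per cell cannot be told apart.

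A second probe set of the same gene gives a measure of how far a change can be read. Among 1409 called genes with at least 2 probe sets that passed the filter, the second brightest moved in the same direction as the brightest in 855 (60.7%), beside 53.2% among genes that were not called. The share was 52.4% where the change was under 1, 64.6% between 1 and 2 and 84% at 2 or more. For the comparison of CD8α+ with CD8α- cells within wild type, where both sides share one processing, the same share was 93.0% (505 of 543 called genes), and within the knockout it was 92.6%. Both probe sets were themselves called in one direction for 371 of 3456 genes (10.7%), 217 higher and 154 lower. Genes with a disagreeing probe set were therefore left out of the genes named for the size of their change.

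**Figure D2:**
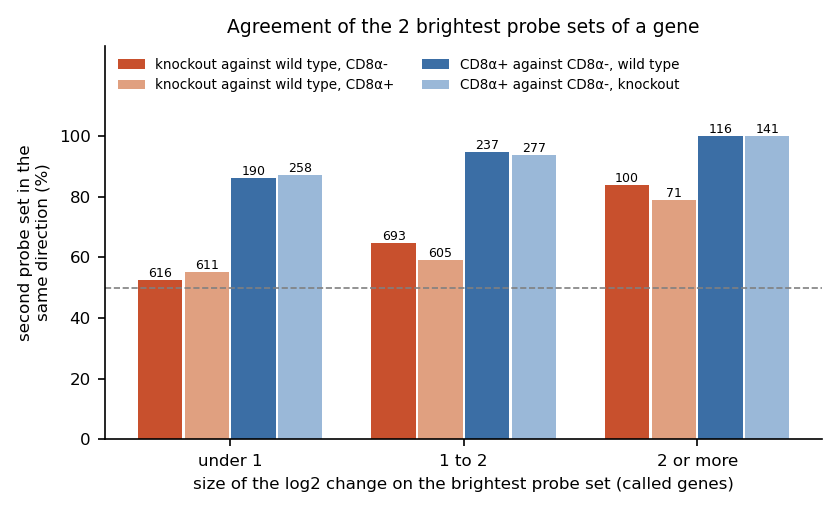
Bars give the percentage of called genes whose second brightest probe set changed in the same direction as the brightest, by the size of the log2 change, with the number of genes above each bar and 50% as a dashed line. For the knockout comparison in CD8α- cells the bars stand at 52.4%, 64.6% and 84%, below those of the subset comparisons within a genotype, which reach 100% at a change of 2 or more.

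The 15 largest rises among genes with no disagreeing probe set are given first. Of these, 12 have 1 probe set that passed, as do 9 of the 15 largest falls, so agreement says nothing for 21 of the 30. Slpi, a secreted inhibitor of serine proteases, read 5.38 and 6.74 on the wild type arrays and 10.89 and 11.53 on the knockout arrays. It rose by 5.15 ± 0.50 (SE) on the log2 scale, or 35.5-fold (adjusted p = 0.00113). Cd14, the coreceptor that hands lipopolysaccharide to TLR4, read 2.17 and 2.38 on the wild type arrays and 9.25 and 10.39 on the knockout arrays, and rose at least 28.2-fold (adjusted p = 0.000558). A group below 5 on both arrays has no spread once its values are set to 5, and the SE and adjusted p of such a gene leave that spread out. That both knockout arrays lay above both wild type arrays was a condition for naming a gene here. C1qa, a chain of the complement component C1q, read 4.13 and 4.45 on the wild type arrays and 9.24 and 9.97 on the knockout arrays, a rise of at least 24.3-fold (adjusted p = 0.000558). The lectin genes Cd209a and Clec10a, both known from monocyte-derived and CD8α- dendritic cells, rose by 4.31 ± 0.44 and 4.28 ± 0.69. Cd209a was already present in wild type, at 8.63 and 8.22, and reached 12.42 and 13.06 in the knockout. Mrc1, the macrophage mannose receptor, rose by 3.99 ± 0.41, from 5.53 and 6.78 to 10.23 and 10.07.

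Iron and lipid transport genes of macrophages stood beside them. Slc40a1 encodes ferroportin, the exporter through which red pulp macrophages release iron from ingested erythrocytes. It read 9.33 and 10.24 on the wild type arrays and 13.59 and 13.31 on the knockout arrays, rose by 3.67 ± 0.30 (adjusted p = 0.000719), and its second probe set rose by 4.47. Apoe, the lipid carrier apolipoprotein E, read 8.98 and 9.30 on the wild type arrays and 12.75 and 12.80 on the knockout arrays, a rise of 3.63 ± 0.22. Both knockout arrays were at nearly the same level here, unlike for the neutrophil markers. Fcgr3 and Fcgr4, activating receptors for antibody, rose at least 14.7-fold and 11.2-fold. Fcna, which encodes the pattern-recognition lectin ficolin A, and Clec1b, known as CLEC-2, rose by 3.78 ± 0.52 and 3.68 ± 0.18. Ifi44l, an interferon-inducible gene, read 2.99 and 2.75 on the wild type arrays and 10.75 and 9.19 on the knockout arrays, a rise of at least 31.4-fold (adjusted p = 0.000973) that its second probe set repeated at 4.71. Hyou1, a chaperone of the endoplasmic reticulum, and Ninj1, a membrane protein of dying and adhering cells, rose by 3.45 ± 0.25 and 3.46 ± 0.58.

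The 15 largest falls included a kinase inhibitor, an ion channel, receptors and genes of cell division. Cdkn2b, which encodes the cyclin-dependent kinase inhibitor p15, read 9.73 and 9.67 on the wild type arrays and 5.03 and 5.28 on the knockout arrays, and fell by 4.54 on the log2 scale (SE 0.40, adjusted p = 0.000895). Ryr3, an intracellular calcium release channel, was among the bright transcripts of wild type cells, at 12.60 and 12.81, and read 8.45 and 8.63 in the knockout, 17.9-fold lower (adjusted p = 0.000154). Its 3 probe sets changed by -4.16 to -1.18. The arrays of each genotype lay close together for Ryr3, far apart from those of the other genotype. Crispld2, a secreted protein with a lipopolysaccharide-binding domain, read 11.19 and 11.55 on the wild type arrays and 7.10 and 8.38 on the knockout arrays, and its 3 probe sets changed by -3.63 to -2.39. Ackr4, a scavenging receptor for the chemokines of the T cell zone, fell at least 8.25-fold from 8.29 and 7.80, and its other probe set fell by 2.67. Insm1, a zinc finger transcription factor of neuroendocrine cells, fell by 3.28 from 10.53 and 10.37.

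Cd200, a ligand that restrains myeloid cells, fell by 3.21 (SE 0.31), from 8.34 and 9.17 to 5.39 and 5.71, while Cd200r1, which encodes its receptor, read 4.36 and 3.82 on the wild type arrays and 6.55 and 7.29 on the knockout arrays and rose at least 3.79-fold. Ligand and receptor thus stood on opposite sides. Sucnr1, a receptor for succinate, fell by 3.50 (SE 0.45), from 11.37 and 10.95. Lad1, a filament-anchoring protein, Cpe, a carboxypeptidase that processes peptide hormones, and Tmem158 were below 5 on both knockout arrays and fell at least 14.8-fold, at least 12.4-fold and at least 11.3-fold. H3f3b, a replication-independent histone H3 gene, is represented by 1 probe set that read 8.02 and 9.05 on the wild type arrays and 3.74 and 3.65 on the knockout arrays. Ncapg, a subunit of condensin, Cip2a, an inhibitor of protein phosphatase 2A, Shcbp1 and Lrr1, all linked to dividing cells, had changes of -3.45, -3.39, -3.34 and -3.13 (SE 0.25, 0.20, 0.46 and 0.44). Of these 30 genes, 25 stayed called under each alternative setting for the CD8α- comparison. Ninj1, Fcna, H3f3b and Lrr1 lost the call without a filter on low values (adjusted p = 0.0755, 0.0509, 0.0575 and 0.0523), as did Clec10a (adjusted p = 0.0724), which also lost it without wild type array 1 (adjusted p = 0.0515).

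**Figure D3:**
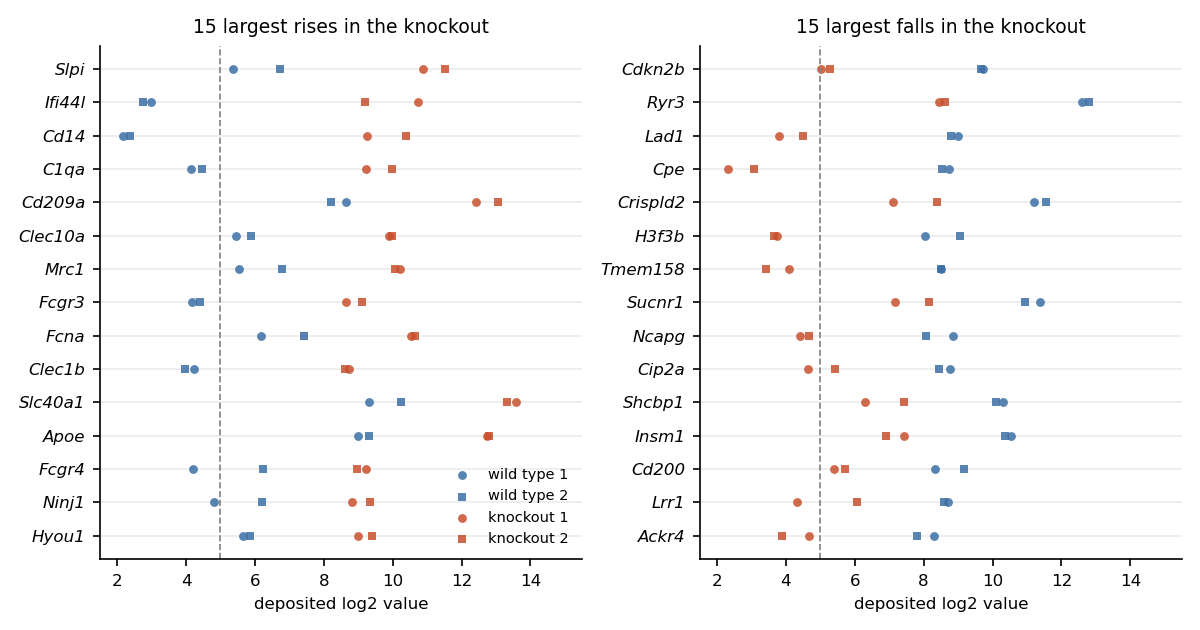
Points are the deposited log2 values of the 30 genes named for their rise (left) or fall (right) in knockout CD8α- cells, with circles for array 1 and squares for array 2 of each genotype and the level of 5 as a dashed line. The wild type (blue) and knockout (red) arrays do not overlap for any of the 30, which the rule for naming them required.

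Many markers of macrophages and monocytes were called higher in the knockout. All 13 macrophage markers that passed the filter were called higher, with a median change of 1.99, beside a median of 0.14 over all genes and 23.8% of genes called higher. The filter set part of this, since 6 of the 13 were below 5 on both wild type arrays and passed through the knockout arrays alone. Of 16 markers on the array, 7 and 7 reached 5 for wild type against 13 and 14 for the knockout, and their summed linear values were 7287 and 8837 against 31107 and 29725. Cd163, the haemoglobin scavenger receptor, read 3.41 and 4.19 on the wild type arrays and 7.99 and 7.83 on the knockout arrays, and rose at least 7.52-fold (adjusted p = 0.000266). Cd5l, secreted by macrophages, rose at least 3.98-fold to 6.99 and 6.99, and C1qc rose at least 8.81-fold. Both were below 5 on both wild type arrays and above it on both knockout arrays. C1qb, another chain of C1q, was already present in wild type, at 9.44 and 9.71, and read 10.22 and 10.72 on the knockout arrays. Hmox1, the haem-degrading enzyme, read 3.85 and 3.85 on the wild type arrays and 7.97 and 8.29 on the knockout arrays, and Spic, the transcription factor that red pulp macrophages need, rose by 1.51 ± 0.24. Vcam1, an adhesion molecule of the same cells, rose by 1.29 ± 0.31, but its 3 probe sets ran from -0.62 to 3.29. With wild type arrays 1 and 2 and knockout arrays 1 and 2 left out in turn, 8, 10, 13 and 10 were called higher. Macrophage markers were higher in knockout CD8α+ cells too: C1qa rose by 3.86 ± 0.32 there and Slc40a1 by 2.93 ± 0.30. Their part in the other changes was not tested.

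Of 10 monocyte markers tested, 9 were called higher and none lower, with a median of 1.91. Csf1r, the receptor for macrophage colony-stimulating factor, was already bright in wild type and read 11.79 and 12.17 on the wild type arrays and 14.74 and 14.84 on the knockout arrays. It rose by 2.81 ± 0.19 (adjusted p = 0.000552), and its 3 probe sets changed by 2.13 to 3.08. Ccr2, the chemokine receptor by which monocytes leave the bone marrow, read 7.77 and 8.32 on the wild type arrays and 10.27 and 11.09 on the knockout arrays, a rise of 2.64 ± 0.35 that its second probe set put at 1.77. The member not called was Lyz1, at 13.34 and 13.89 on the wild type arrays and 13.38 and 13.79 on the knockout arrays. With the same arrays left out in turn the counts were 4, 6, 7 and 4, lowest without wild type array 1 or knockout array 2.

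Among C-type lectins and phagocytic receptors, which bind sugars of microbes and dying cells, 10 of 12 tested were called higher and none lower (median 1.80), and 6, 8, 10 and 8 with the 4 arrays left out in that order. With all arrays 83.3% of these lectins and receptors were called higher, beside 23.8% of all genes, and 11 and 10 of them after quantile normalization and median centring. Of the 12, 3 were below 5 on both wild type arrays, and of the Fc and complement receptors that follow 4 were. Clec7a, the β-glucan receptor dectin-1, read 10.29 and 10.06 on the wild type arrays and 13.06 and 12.53 on the knockout arrays, and rose by 2.62 ± 0.37 (adjusted p = 0.00302). Clec4a2, an inhibitory receptor of the DCIR family, rose by 1.44 ± 0.18, and Clec4n, which encodes dectin-2, rose by 1.63 ± 0.42 with both probe sets called. Cd209b, the mouse relative SIGN-R1 known from marginal zone macrophages, was below 5 on both wild type arrays and reached 7.31 and 7.12. Ly75, the endocytic receptor DEC-205, was not called, with 8.11 and 8.08 on the wild type arrays and 7.86 and 6.98 on the knockout arrays. Of 14 Fc and complement receptor genes, 11 were called higher and 1 lower (median 1.04), and 7, 7, 9 and 9 were higher with 1 array left out in the same order. The share called higher with all arrays was 78.6%. After quantile normalization 8 of the 14 were called higher and 1 lower, and after median centring 7 and 1. Fcgr2b, the inhibitory Fcγ receptor, read 8.62 and 8.89 on the wild type arrays and 12.30 and 11.70 on the knockout arrays. It rose by 3.24 ± 0.24 (adjusted p = 0.000558), and its 4 probe sets changed by 3.24 to 4.34. Fcer1g, the signalling chain shared by activating Fc receptors, rose by 1.04 ± 0.31. Itgax, the CD11c chain by which dendritic cells are recognised, rose by 1.04 ± 0.16, from 13.11 and 13.10 in wild type. The Fcγ receptor genes are related in sequence, and whether their probe sets share signal was not tested. Fcmr, an Fc receptor for IgM known from B cells, was the member that fell, from 7.86 and 7.07 to 3.53 and 3.53.

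The share called higher was 47.6% for MHC class II presentation, 42.1% for class I and 56.25% for lysosomal proteases and inhibitors, beside 23.8% of all genes. After quantile normalization 11, 5 and 8 members of these lists were called higher. Of 21 genes of MHC class II presentation, 10 were called higher, 2 lower and 9 neither, with a median of 0.64. The class II chains themselves were near the top of the scale. H2-Aa read 15.39 and 15.16 on the wild type arrays and 16.04 and 15.55 on the knockout arrays and H2-Ab1 15.10 and 15.001 on the wild type arrays and 15.52 and 15.22 on the knockout arrays, and neither was called (adjusted p = 0.0884 and 0.184). H2-Aa gained a call, as higher, in 4 of 17 alternative settings and H2-Ab1 in 1 of 17. H2-Eb1, the β chain of I-E, rose by 0.93 ± 0.18, from 14.81 and 14.58 to 15.77 and 15.49, and Cd74, the invariant chain that escorts class II, by 1.17 ± 0.16. The peptide exchange genes H2-DMa and H2-DMb2 rose by 1.22 ± 0.17 and 1.40 ± 0.20, and the 3 probe sets of H2-DMb2 lay between 1.40 and 1.52. H2-Oa and H2-Ob, which restrain that exchange, rose as well, by 1.19 ± 0.24 and 0.70 ± 0.20. Rfx5, a transcription factor of the class II promoters, read 10.62 and 10.66 on the wild type arrays and 12.52 and 12.64 on the knockout arrays, a rise of 1.94 ± 0.22 (adjusted p = 0.00153). Cd1d1, which presents lipids to NKT cells, ran the other way, from 13.05 and 13.16 to 11.89 and 11.79, a change of -1.27 (SE 0.14) on its brightest probe set, while its other probe set changed by 0.19.

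MHC class I presentation had 8 of 19 genes called higher, none lower and 11 neither (median 0.38), with 4, 2, 5 and 6 called without, in turn, wild type array 1, wild type array 2, knockout array 1 and knockout array 2. H2-K1 rose by 1.77 ± 0.19, from 13.79 and 13.62 to 15.49 and 15.46, and its 4 probe sets changed by 0.88 to 1.77. Class I genes are close copies of each other, and whether their probe sets share signal was not tested. Lysosomal proteases and their inhibitors had 9 of 16 called higher and none lower (median 0.95), and 5, 4, 7 and 5 with the same arrays left out. Lgmn, the asparagine endopeptidase legumain, read 7.65 and 8.17 on the wild type arrays and 9.95 and 10.12 on the knockout arrays, and rose by 2.12 ± 0.27 (adjusted p = 0.00229). Tpp1, a lysosomal tripeptidyl peptidase, rose by 1.81 ± 0.19, and Ctsb, cathepsin B, by 1.13 ± 0.18 with all 4 probe sets higher. Napsa, an aspartic protease, rose by 0.99 ± 0.18 on one probe set and 0.99 on the other. Ctss, the cathepsin that trims the invariant chain, was not called, at 15.002 and 15.08 on the wild type arrays and 15.15 and 14.78 on the knockout arrays.

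Type I interferon-stimulated genes answer to the interferons made during viral infection and are also held at a resting level by them. Of 18 tested, 9 were called higher and none lower, with a median of 0.76. That is 50% called higher, beside 23.8% of all genes. The count was 7 with values as deposited, with values under 6 set to 6, after quantile normalization and after median centring. Irf7, the transcription factor that amplifies interferon production, read 7.43 and 7.03 on the wild type arrays and 10.62 and 10.49 on the knockout arrays, and rose by 3.32 ± 0.46 (adjusted p = 0.00284). Rtp4 read 9.45 and 9.39 on the wild type arrays and 12.80 and 11.81 on the knockout arrays, a rise of 2.88 ± 0.30, and Rsad2, which encodes the antiviral enzyme viperin, read 9.76 and 10.14 on the wild type arrays and 11.97 and 11.98 on the knockout arrays, a rise of 2.02 ± 0.28 that its second probe set put at 1.87. For each of the 3, both knockout arrays lay above both wild type arrays by more than 1. Ifit3, Oas2, Zbp1, Mx1 and Oas1a, antiviral effectors, rose by 1.54, 1.76, 1.10, 0.80 and 0.73 (SE 0.36, 0.28, 0.27, 0.24 and 0.22). The smaller of these were unsteady: Oas1a lost the call in 13 of 17 alternative settings, Mx1 in 9 of 17, Zbp1 in 5 of 16 and Ifit3 in 4 of 17. Xaf1, Stat2, Usp18 and Ifih1 were not called, with changes of 0.00, 0.29, 0.36 and 0.35. Leaving out wild type arrays 1 and 2 and knockout arrays 1 and 2 gave 4, 5, 5 and 11 called higher. Ifnar1, a chain of the receptor for these interferons, rose by 1.05 ± 0.17.

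Promoters of this list were searched on both strands for 2 copies of GAAA with 2 bases of any kind between them, the core of the interferon-stimulated response element, in the 250 bases before each RefSeq gene start (GRCm38.p6). Of the 9 called genes, 5 had an entry and 3 of those held a match, as did 3 of 8 of the members not called, beside 239 of 6993 genes tested with an entry (3.42%) and 2.98% of all 32851 windows. The 2 called genes with the largest rise and a match are shown to place the motif, in capitals, against the gene start at the right end of each sequence.
Rsad2, chr12:26456453-26456702, minus strand: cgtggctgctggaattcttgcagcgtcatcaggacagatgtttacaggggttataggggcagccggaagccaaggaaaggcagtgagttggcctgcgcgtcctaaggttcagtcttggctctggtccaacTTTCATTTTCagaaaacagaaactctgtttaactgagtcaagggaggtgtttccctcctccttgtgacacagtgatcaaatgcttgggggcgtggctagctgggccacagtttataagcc
Ifit3, chr19:34583279-34583528, plus strand: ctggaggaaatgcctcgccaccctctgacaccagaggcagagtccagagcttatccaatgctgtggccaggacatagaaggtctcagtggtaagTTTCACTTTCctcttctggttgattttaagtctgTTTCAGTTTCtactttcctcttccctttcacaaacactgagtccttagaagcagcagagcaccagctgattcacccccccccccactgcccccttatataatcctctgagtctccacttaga
The match of Rsad2 begins 120 bases before the start, and those of Ifit3 begin 156 and 122 bases before it. These letters describe the sequence and do not show that a factor was bound.

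Toll-like receptors and their adaptors had 10 of 16 called higher and none lower (median 0.74), and 5, 4, 6 and 5 without, in turn, wild type array 1, wild type array 2, knockout array 1 and knockout array 2. With all arrays 62.5% of this list was called higher, beside 23.8% of all genes. After quantile normalization 6 members were called higher and 1 lower, and after median centring 7 and 1. Tlr7, which senses single-stranded RNA, rose by 0.75 ± 0.19, from 8.81 and 8.67 to 9.73 and 9.24, with 3 probe sets between 0.75 and 1.35. Myd88, the adaptor shared by most of the family, read 9.86 and 9.76 on the wild type arrays and 11.17 and 11.16 on the knockout arrays, a rise of 1.36 ± 0.22. Tirap, which recruits it to the surface receptors, rose by 1.99 ± 0.28, and Ly86, a partner of Cd180, by 0.95 ± 0.16. Tlr4 read 6.06 and 6.05 on the wild type arrays and 6.80 and 7.19 on the knockout arrays, a rise of 0.94 ± 0.22 in these cells, and in CD8α+ cells it fell by 0.87 (SE 0.22); the difference of these changes did not pass (adjusted p = 0.115).

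**Figure D4:**
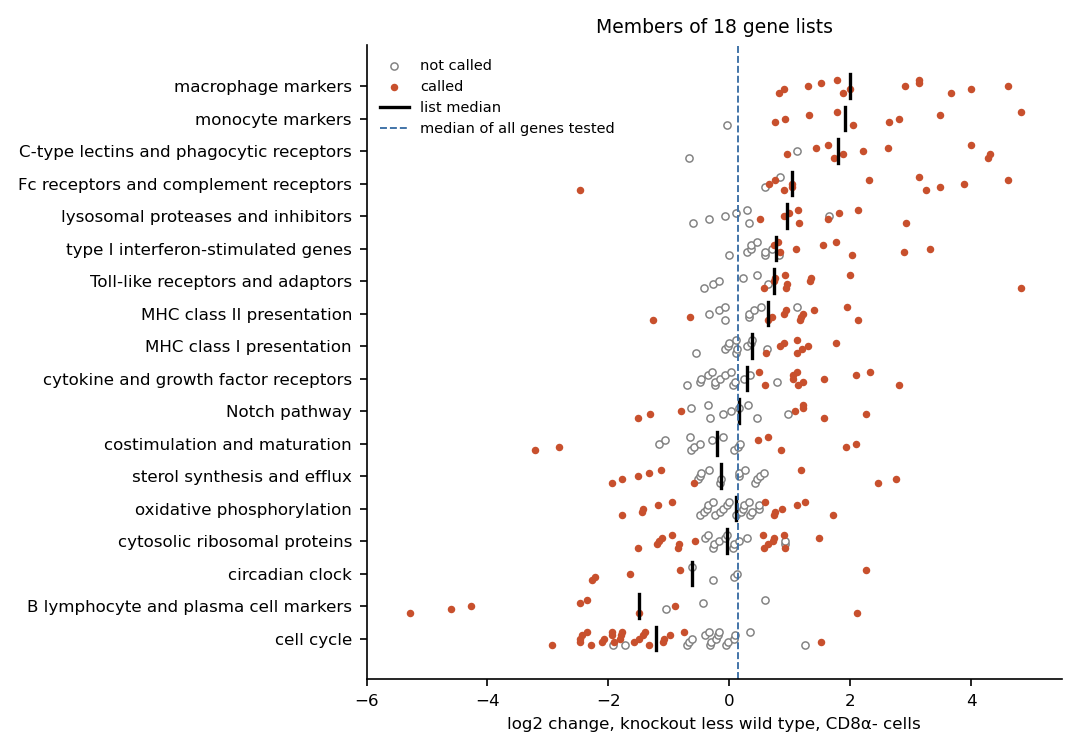
Each point is the log2 change of one gene of a list between knockout and wild type CD8α- cells, filled where it was called, with the list's median as a bar and the median of all 8509 genes (0.14) as a dashed line. Macrophage, monocyte and lectin genes lie to the right, with medians of 1.99, 1.91 and 1.80, and cell cycle genes to the left, with a median of -1.22.

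Cell cycle genes were lower as a group. Of 42 tested, 23 were called lower and 1 higher, and the median change was -1.22, beside 16.8% of all genes called lower. Mki67, which encodes the proliferation antigen Ki-67, read 12.89 and 12.78 on the wild type arrays and 10.80 and 11.32 on the knockout arrays, a change of -1.78 (SE 0.22, adjusted p = 0.00205). Aurkb, a kinase of chromosome segregation, read 9.22 and 9.03 on the wild type arrays and 6.64 and 7.03 on the knockout arrays, and its probe sets changed by -2.62 and -2.29. In both genes the knockout arrays lay more than 1 below the lower wild type array. Tyms, the thymidylate synthase of DNA replication, was below 5 on both knockout arrays and fell at least 3.45-fold. The mitotic genes Birc5, Bub1, Kif20a and Ube2c had changes of -2.48, -2.94, -2.46 and -1.92 (SE 0.47, 0.78, 0.48 and 0.38). Kif11, a motor of the mitotic spindle, changed by -2.92 and -1.33 on its 2 probe sets, and Rrm2, a subunit of ribonucleotide reductase, by -1.81 on its brightest, although another of its 3 probe sets changed by 0.36. Knockout array 2 was the higher of the pair for many members. Bub1 read 5.32 and 8.06 on the knockout arrays and Cdk1 6.14 and 8.71. With wild type arrays 1 and 2 and knockout arrays 1 and 2 left out in turn, 6, 7, 16 and 25 were called lower. The replication factors Pcna and Mcm7 did not pass, with changes of -0.22 ± 0.24 and -0.02 ± 0.20. Ccnd3, cyclin D3, was the member called higher, from 8.69 and 9.17 to 9.96 and 10.93. Cell cycle members also fell in CD8α+ cells: the changes were -1.76 for Mki67 and -2.30 for Aurkb (SE 0.22 and 0.25).

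Many mitotic genes carry a cell cycle homology region, TTTGAA, near a CCAAT box in their promoters. Windows of the same length were searched for both motifs on both strands. Of the 23 genes called lower, 18 had an entry and 6 of those held both, as did 3 of 15 members not called, beside 347 of 6993 genes tested with an entry (4.96%) and 5.55% of all windows. The 2 called genes with the largest fall and both motifs are shown, with each match in capitals.
Cdk1, chr10:69352913-69353162, minus strand: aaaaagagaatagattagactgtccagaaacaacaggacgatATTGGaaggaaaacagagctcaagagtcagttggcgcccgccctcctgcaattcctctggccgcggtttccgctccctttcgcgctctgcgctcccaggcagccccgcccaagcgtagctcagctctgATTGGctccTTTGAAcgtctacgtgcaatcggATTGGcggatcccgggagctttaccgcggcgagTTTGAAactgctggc
Cdc20, chr4:118437344-118437593, minus strand: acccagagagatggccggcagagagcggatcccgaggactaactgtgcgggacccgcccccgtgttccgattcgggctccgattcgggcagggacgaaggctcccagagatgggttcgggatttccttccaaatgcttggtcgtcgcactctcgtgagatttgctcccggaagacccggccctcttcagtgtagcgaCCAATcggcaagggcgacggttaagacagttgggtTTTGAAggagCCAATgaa
Cdk1, the kinase that drives entry into mitosis, read 9.94 and 9.62 on the wild type arrays and 6.14 and 8.71 on the knockout arrays, and fell by 2.35 (SE 0.74). Cdc20, which activates the anaphase-promoting complex, read 11.25 and 11.29 on the wild type arrays and 8.80 and 9.85 on the knockout arrays, and fell by 1.95 (SE 0.34) on its brightest probe set, while another of its 3 changed by 0.96. The Cdk1 window holds 5 matches, the last 15 bases before the start, and the Cdc20 window 3, the last 8 bases before it.

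Of 22 genes of sterol metabolism, 6 were called lower, 3 higher and 13 neither, with a median of -0.15. That is 40.9% called, beside 40.6% of all genes, and in CD8α+ cells 2 were called lower and 2 higher. The 6 that fell make sterols, fatty acids or their regulators. Fdft1, squalene synthase, read 9.99 and 9.83 on the wild type arrays and 8.02 and 8.25 on the knockout arrays, a change of -1.77 (SE 0.26, adjusted p = 0.00332), and its other probe set changed by -1.58. Idi1, isopentenyl diphosphate isomerase, changed by -1.51 and its second probe set by -1.74, and Insig1, Dhcr7 and Acaca had changes of -1.95, -1.13 and -1.33 (SE 0.59, 0.22 and 0.24). The 3 that rose were Abca1, Mylip and Abcg1. Abca1, which exports cholesterol, read 4.03 and 4.41 on the wild type arrays and 7.197 and 7.71 on the knockout arrays, and rose at least 5.48-fold (adjusted p = 0.0021). Mylip, which degrades the LDL receptor, read 8.53 and 8.98 on the wild type arrays and 11.54 and 11.48 on the knockout arrays, a rise of 2.75 ± 0.19. Abcg1, a second cholesterol exporter, rose by 1.18 ± 0.15, but its other probe set changed by -0.15. The synthesis genes Hmgcs1 and Sqle and the regulator Srebf1 were not called, at changes of -0.52, -0.15 and 0.15. Without, in turn, wild type array 1, wild type array 2, knockout array 1 and knockout array 2, 2, 4, 3 and 4 members were called lower and 4, 3, 3 and 4 higher.

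The clock and immediate early lists held calls on both sides. Of 9 clock genes, 4 were called lower and 1 higher (median -0.61). Dbp, an output gene of the clock, read 9.65 and 9.80 on the wild type arrays and 7.56 and 7.34 on the knockout arrays, a change of -2.27 (SE 0.20, adjusted p = 0.000895). Bhlhe40 read 11.14 and 11.24 on the wild type arrays and 8.72 and 9.23 on the knockout arrays, a change of -2.21 (SE 0.21), and Cry1 fell by 1.65 while Per1 rose by 2.25. In the same order of arrays left out, 4, 2, 4 and 3 clock genes were called lower. The labels give no time of day for the sorts. Of 24 immediate early genes, which respond within minutes to stimulation or handling, 6 were called higher and 4 lower, and 2, 1, 6 and 1 higher and 3, 2, 2 and 3 lower with 1 array left out in that order. The shares, 25% higher and 16.7% lower, are close to those of all genes (23.8% and 16.8%). Atf3 rose by 2.40 ± 0.19, from 6.24 and 6.47, and Egr2 fell by 2.75 (SE 0.15), from 8.37 and 8.35. Jun changed by -1.29 on its brightest probe set and -1.74 on the second. Among unfolded protein response genes, 5 of 17 were called higher and 1 lower (3, 2, 5 and 5 higher with 1 array left out in that order). Of these genes 35.3% were thus called, beside 40.6% of all genes. Xbp1, the transcription factor spliced in the unfolded protein response, read 11.84 and 11.94 on the wild type arrays and 13.34 and 13.53 on the knockout arrays, a rise of 1.54 ± 0.16 that its second probe set put at 2.32.

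Of 18 costimulation and maturation genes, 5 were called higher and 2 lower (median -0.20), 38.9% in all beside 40.6% of all genes. The balance changed with the scaling, to 3 higher and 5 lower after median centring and 3 and 3 after quantile normalization. Fscn1, the actin bundler of mature dendritic cells, read 14.95 and 14.99 on the wild type arrays and 12.29 and 12.02 on the knockout arrays. It fell by 2.81 (SE 0.17, adjusted p = 0.000379), and its other probe set changed by -1.203. Cd86, a ligand of CD28, rose by 0.64 ± 0.20, from 9.27 and 9.45 to 10.18 and 9.80, and lost the call in 10 of 17 alternative settings. Havcr2, known as TIM-3, rose by 2.10 ± 0.34. Of 26 cytokine and growth factor receptor genes, 11 were called higher and none lower, 42.3% in all beside 40.6% of all genes. Without, in turn, wild type array 1, wild type array 2, knockout array 1 and knockout array 2, 5, 5, 8 and 9 of these receptors and 3, 2, 2 and 4 of the maturation genes were called higher. Tnfrsf1a, the p55 receptor for tumour necrosis factor, read 9.23 and 9.57 on the wild type arrays and 11.77 and 11.68 on the knockout arrays, a rise of 2.33 ± 0.16 (adjusted p = 0.000558). Flt3, whose ligand sustains dendritic cells, rose by 1.22 ± 0.26, and Tgfbr2 by 1.56 ± 0.22. Cd81, a tetraspanin, rose by 2.71 ± 0.28 from 9.46 and 9.90, among 19 integrin and adhesion genes of which 9 were called higher and 2 lower (6, 6, 7 and 5 higher with 1 array left out in that order).

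In the Notch pathway 5 of 17 genes were called higher (29.4%) and 3 lower (17.6%), near the shares over all genes (23.8% and 16.8%), and 2, 4, 5 and 5 higher and 2, 1, 3 and 3 lower without, in turn, wild type array 1, wild type array 2, knockout array 1 and knockout array 2. Notch2, the receptor itself, read 12.997 and 13.03 on the wild type arrays and 11.87 and 11.14 on the knockout arrays, a change of -1.51 (SE 0.29, adjusted p = 0.00825), and Rbpj, the nuclear partner of the cleaved receptor, read 11.32 and 11.45 on the wild type arrays and 12.56 and 12.64 on the knockout arrays, a rise of 1.22 ± 0.14 with all 3 probe sets higher. Receptor and nuclear partner therefore moved in opposite directions. Dtx4, one of the deltex genes, rose by 2.26 ± 0.25. Notch2 also fell in CD8α+ cells, with a change of -1.66 (SE 0.29), and Dtx4 rose by 2.19 ± 0.25 there. Of 11 lymphotoxin and noncanonical NF-kB genes, 2 were called higher and 3 lower (2 and 5 under either median centring or quantile normalization, and 0, 0, 1 and 2 higher and 2, 3, 1 and 2 lower with 1 array left out in that order). Of the 11 genes 45.5% were called, beside 40.6% of all genes. Ltb, a lymphotoxin subunit that dendritic cells make too, rose by 0.96 ± 0.23, from 11.41 and 11.62 to 12.76 and 12.18, and Tnfrsf13c, the BAFF receptor known from B cells, fell at least 3.77-fold from 6.97 and 6.86. Tnfrsf11a, the receptor RANK, changed by -1.41 and -1.09 on its 2 probe sets.

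Of 12 markers of CD8α- cells, 6 were called higher and 3 lower, and of 12 markers of CD8α+ cells 6 were called higher and none lower, beside 23.8% of all genes higher and 16.8% lower. The summed linear value of the CD8α+ list was 19725 and 21067 for wild type against 30793 and 44268 for the knockout, highest on knockout array 2. Batf3, the transcription factor that CD8α+ cells need, rose by 1.02 ± 0.17, from 11.22 and 11.03 to 12.14 and 12.16. Naaa and Rab7b read 10.97 and 12.44 and 7.74 and 10.04 on the knockout arrays, with array 2 the higher in each. Without, in turn, wild type array 1, wild type array 2, knockout array 1 and knockout array 2, the CD8α+ list had 1, 3, 9 and 4 called higher and the CD8α- list 3, 5, 4 and 6 higher and 1, 0, 3 and 2 lower. In the CD8α- list Ccr6 and Tbx21 fell, with changes of -1.11 and -1.92 (SE 0.21 and 0.53). Of 33 transcription factors of dendritic cells, 8 were called higher and 3 lower, and the higher share of 24.2% is close to that of all genes (23.8%) (6, 5, 6 and 8 higher and 2, 1, 2 and 3 lower with 1 array left out in that order). The balance changed here too, to 5 higher and 7 lower after quantile normalization and 6 and 6 after median centring. Id2, which all conventional dendritic cells require, read 14.23 and 14.46 on the wild type arrays and 12.78 and 12.70 on the knockout arrays, and its 3 probe sets changed by -1.605 to -0.86.

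B lymphocyte and plasma cell transcripts, which the genotype should remove, were mostly lower in the knockout. Of 11 tested, 7 were called lower and 1 higher, and 4, 7, 7 and 6 lower without, in turn, wild type array 1, wild type array 2, knockout array 1 and knockout array 2. The filter set part of this, since 6 of the 11 were below 5 on both knockout arrays and passed through the wild type arrays alone. Over all genes 16.8% were called lower. Jchain, the joining chain of antibodies, read 10.56 and 9.99 on the wild type arrays and 2.233 and 3.31 on the knockout arrays. Not all members were lost. Ighm read 13.42 and 13.03 on the wild type arrays and 12.40 and 12.27 on the knockout arrays, and Cd79b 9.27 and 8.59 against 8.29 and 7.48. Bank1, listed with B cells but made by dendritic cells as well, was the member called higher, at 8.13 and 8.00 on the wild type arrays and 10.38 and 9.97 on the knockout arrays. Cd22 was also higher on both knockout arrays, at 12.56 and 12.31 against 11.99 and 11.72, without a call. Lists of basic cell functions had calls on both sides. Ribosomal protein genes had 8 of 29 called higher and 8 lower, with only 3 of the 10 called members that have several probe sets agreeing across them. Oxidative phosphorylation had 7 of 31 higher and 5 lower, and 5 and 7 after quantile normalization. Glycolysis had 4 of 15 higher and 1 lower. In all, 55.2% of the ribosomal protein genes, 38.7% of those of oxidative phosphorylation and 33.3% of those of glycolysis were called, beside 40.6% of all genes. In the order of arrays left out above, 4, 3, 8 and 4 genes of oxidative phosphorylation, 1, 2, 6 and 2 of glycolysis and 3, 4, 6 and 6 of the ribosomal proteins were called higher, and 4, 5, 7 and 6 of the last were lower. Among 11 housekeeping genes 3 were called higher and 2 lower, which is 45.5% called, beside 40.6% over all genes.

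The knockout changes in CD8α- cells were next set beside those in CD8α+ cells, which came from separate arrays but share the genotypes' separate normalization. In CD8α+ cells 3099 genes were called (36.4%). Of the CD8α- calls 69.2% were also called in the same direction in CD8α+ cells, and these made up 77.2% of the calls there, while 8 genes were called in opposite directions. Across genes the changes had Pearson r = 0.84 and Spearman rho = 0.84, where genes are not independent. The difference of the changes, from which an offset shared by all arrays of a genotype cancels, was called for 27 genes (0.317%), 9 with the higher change in CD8α- cells and 18 with the lower. At an unadjusted p under 0.05 there were 675.

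Fcgr2b was above 5 on all 8 arrays. In CD8α- cells it went from 8.62 and 8.89 to 12.30 and 11.70, and in CD8α+ cells it read 10.69 and 10.97 for wild type against 10.96 and 11.18 for the knockout. Wild type CD8α- cells were thus below CD8α+ cells, and knockout CD8α- cells above them. The difference was 3.001 ± 0.34 (SE, adjusted p = 0.032). Fcgr3 rose in both subsets, by 3.87 and 0.67, with a difference of 3.20 ± 0.27 (adjusted p = 0.0121). Abca9, a lipid transporter relative, read 8.26 and 9.15 on the wild type arrays and 12.17 and 12.06 on the knockout arrays, and was below 5 on all 4 CD8α+ arrays, as were Cd300ld, Cd300lb, Cd209b and Hacd4. For these the difference is the CD8α- change itself. Cd300ld and Cd300lb, immune receptors of myeloid cells, rose by 2.30 ± 0.17 and 2.12 ± 0.16. With values as deposited the differences of Abca9 and Cd300lb were 3.08 and 1.80 and were not called (limma, adjusted p = 0.0872 and 0.624). Those of Cd300ld, Cd209b and Hacd4 were 2.16, 4.97 and 3.84 and stayed called.

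On the other side, Ryr3 fell by 4.16 in CD8α- cells, and in CD8α+ cells it read 5.40 and 5.41 for wild type against 3.23 and 3.23 for the knockout, where the level of 5 hides most of a fall. Its difference was -3.76 ± 0.22 (adjusted p = 0.00345), and it was -1.98 with values as deposited. Dkk2, a Wnt inhibitor, Cdh17, a cadherin of intestine and B cells, Dnajc22 and the sodium channel gene Scn3a were below 5 on all 4 CD8α+ arrays and changed by -2.98, -2.53, -2.31 and -1.99 in CD8α- cells (SE 0.16, 0.20, 0.15 and 0.17). With values as deposited their differences were -3.98, -1.09, -0.91 and -1.05, and none of the 4 was called (limma, adjusted p = 0.0549, 0.393, 0.822 and 0.774). Zdhhc14, a palmitoyltransferase, rose in both, by 0.91 ± 0.18 and 3.10 ± 0.18. Its difference of -2.19 lost the call in 12 of 20 alternative settings and was -0.40 with the mean of its 4 probe sets (limma, adjusted p = 0.781). Dtx1, a deltex gene of the Notch pathway, was high and not called in CD8α- cells, at 12.36 and 12.14 on the wild type arrays and 11.74 and 12.13 on the knockout arrays, and fell in CD8α+ cells from 7.41 and 7.31 to 3.85 and 3.97. With values as deposited, 8 of the 16 named genes stayed called, Fcgr2b and Fcgr3 among them. Without knockout CD8α+ array 1, limma called 0 genes (658 at an unadjusted p under 0.05), and without knockout CD8α- array 2, 10 of the 16 stayed called.

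**Figure D5:**
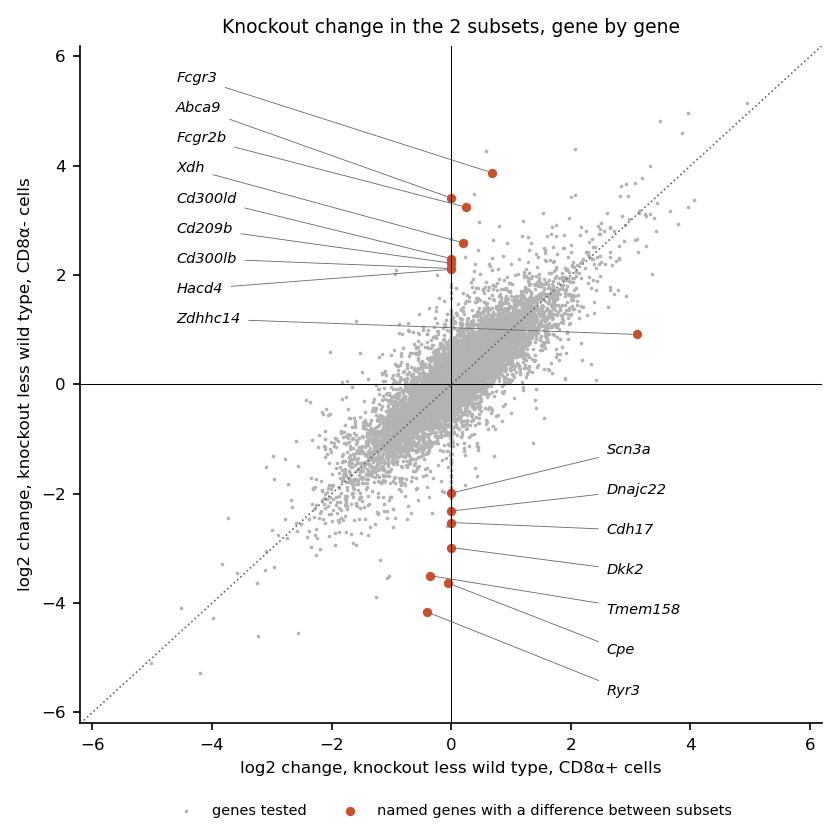
Each grey point is one of 8509 genes, placed by its knockout change in CD8α+ cells (horizontal) and in CD8α- cells (vertical), both as log2 differences, and the 16 named genes whose changes differ are in red. Most genes lie along the dotted line of equal change, and 9 of the red points lie at 0 on the horizontal axis because the gene is below 5 on all 4 CD8α+ arrays.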

How the data were processed

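Each array held total RNA of one sorted sample. The authors deposited 1 log2 value for each of 45101 probe sets per array; per the submitters' processing notes these came from GCRMA, with the affy package for the wild type arrays, and no version is given. Probe sets with 1 gene symbol in the platform annotation numbered 34945, and 932 named several genes and 9160 none. Values under 5 were set to 5, and the brightest probe set stood for a gene. A model with 4 group means was fitted to all 8 arrays with limma 3.58.1 in R 4.3.3 (4 residual degrees of freedom), with Benjamini-Hochberg adjustment over 8509 genes and calls at 0.05. A fold against a group below 5 on both arrays is given as "at least", computed against 5. The number of arrays limits the precision. The genes named first were the 15 largest rises and falls, and for the difference between subsets the 8 largest each way, among called genes with arrays that do not overlap and no disagreeing probe set, without B cell, immunoglobulin and clone-named genes. The others named are members of the 41 lists; Dtx1 and Cadm3 are list members with a called difference. The members and lists were chosen with earlier results of these data known. Same-numbered replicates were checked for pairing: the correlation of their deviations ran from -0.17 to 0.12. No pairing was thus seen, but weak correlations cannot tell whether same-numbered arrays shared a mouse, a pool or a sort. Alternatives changed the floor, filter, scaling, probe set rule, variance model and replicates. Promoter sequences are RefSeq's, GRCm38.p6.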

Additional observations from a re-analysis of the deposited data

Results flagged for a closer look

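The knockout change differed between the subsets by the test of the difference itself for 18 genes described here, and no explanation was weighed. Each value is the log2 knockout change of the CD8α- subset after that of the CD8α+ subset was subtracted. The change was higher in CD8α- cells for Abca9 (3.41), Fcgr3 (3.20), Fcgr2b (3.001), Xdh (2.39), Cd300ld (2.30), Cd209b (2.22), Cd300lb (2.12), Hacd4 (2.10) and Dtx1 (2.05). Xdh, which encodes xanthine dehydrogenase, read 4.69 and 4.68 on the wild type arrays and 7.36 and 7.82 on the knockout arrays in CD8α- cells, and on the CD8α+ arrays 4.91 and 4.69 for wild type and 5.40 and 4.84 for RAG2-/-. In CD8α- cells the change was lower for Ryr3 (-3.76), Cpe (-3.59), Tmem158 (-3.14), Dkk2 (-2.98), Cdh17 (-2.53), Dnajc22 (-2.31), Zdhhc14 (-2.19), Scn3a (-1.99) and Cadm3 (-1.55). Cadm3, an adhesion molecule, read 8.80 and 8.63 on the wild type arrays and 7.89 and 7.89 on the knockout arrays in CD8α- cells. With 9 of the named genes below 5 on all 4 CD8α+ arrays, the level of 5 sets their CD8α+ change at 0 and leaves out its spread. With values as deposited, 8 of the 16 genes named for the size of the difference lost the call. These were Abca9, Xdh, Cd300lb, Tmem158, Dkk2, Cdh17, Dnajc22 and Scn3a.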

How the results depend on the processing

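The count of 3457 genes in CD8α- cells became 1483 without a filter on low values, 5262 with each probe set on its own, 371 where both of the brightest probe sets had to be called and 1960 with a log2 change of at least 1. Leaving out 1 array gave 1721 to 2685 genes, with 1721 and 1975 without wild type arrays 1 and 2, and 2685 and 2602 without knockout arrays 1 and 2. In CD8α+ cells 3099 became 1157 without a filter, 4849 with each probe set on its own, 306 with both called and 1692 with a change of at least 1, and leaving out 1 array gave 1630 to 2028. The 27 differences became 50 with the floor at 6, 15 with an offset of 16 in place of the floor, 17 with each probe set on its own and 0 with both called, and 0 to 17 with 1 array left out (675 at an unadjusted p under 0.05 with all arrays). With the replicate number as a block the counts were 3365 in CD8α- cells and 6 for the difference. A block with the numbers exchanged in the knockout CD8α+ group, chosen after seeing the data, gave 3506, 3133 in CD8α+ cells and 6 for the difference. Of 137 called genes the text names in the CD8α- comparison, 85 kept the call under every setting run, 52 lost it under at least 1 and none changed direction. The losses were most frequent for Oas1a (13 of 17 settings), Cd86 (10), Cd180 (10), Mx1 (9), Tlr7 (8), Fcer1g (8), Insig1 (7) and Per1 (7). Of 16 named genes that were not called, 6 changed sign under some setting, and 4 gained a call under at least 1 (H2-Aa, H2-Ab1, Hmgcs1 and Ly75). All 16 named differences lost the call under at least 1 setting. The causes were not tested.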
